A study of Mus musculus with 9 samples.

Results

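The cytosolic ribosomal protein genes were followed through a Hedgehog time course in mouse fibroblasts. They were taken by symbol: all names of the form Rpl or Rps with a number, together with Rpsa, Rplp0, Rplp1 and Rplp2, with entries marked as pseudogenes (-ps) left out. This gave 84 genes of the 30407 features that both experiments' feature lists share, 52 of the large (60S) and 32 of the small (40S) subunit. Of these, 83 entered the tests. Rpl10l, a testis-type copy of Rpl10, had no UMI in any kept cell, and Rpl3l, a muscle-type copy of Rpl3, had 55 UMIs over all libraries.

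The ribosome is built from RNA and a copy of each of these proteins, so their genes are usually expressed in step, and their mRNAs are among the most abundant in a growing fibroblast. Most of these mRNAs begin with a 5′ terminal oligopyrimidine (TOP) stretch, a C followed by a run of C or T, through which the mTORC1 kinase and LARP1 set how well they are translated and how long they last. MYC drives much of ribosome production, and ribosomal proteins left over when assembly fails, Rpl5 and Rpl11 above all, bind MDM2 and raise p53.

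NIH3T3-CG cells, a line of mouse embryonic fibroblasts, were treated with SAG, a small molecule that activates Smoothened and thereby the Hedgehog pathway. Cells were detached with trypsin and profiled as 9 droplet libraries (10x Genomics single cell 3′, version 3.1). Experiment 1 held 3 libraries, at 0, 17 and 30 h of SAG, for which the labels do not mention Dox and which are treated here as without it. Experiment 2 held 6 libraries: SAG for 0, 19 or 30 h, each in an arm that received Dox and in an arm that did not (doxycycline, as a rule an inducer of a transgene). The labels name neither what Dox switched on nor whether the libraries of a group came from separate cultures, so a p-value here is set against library-to-library spread alone, which may be technical. The 17 h and 19 h libraries were treated as 1 time. Every later library received SAG, so SAG cannot be told apart from time in culture.

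Cells were kept at 5000 or more UMIs and at most 10% mitochondrial UMIs, which left 571 to 6520 cells and 19422658 to 106128757 UMIs per library; doublets were not removed. The 19 h library without Dox in Experiment 2 was shallow, with a median of 8025 UMIs per kept cell against 28335 to 48188 in the others, and between 17.9% and 19.7% of the kept cells of the 30 h libraries of Experiment 2 and of its 19 h library with Dox had under 1% mitochondrial UMIs, against 0.429% to 1.41% elsewhere. All 10 fibroblast markers were found, with a summed level of 2652 to 7874 CPM (counts per 1000000 UMIs of the library). Summed epithelial markers lay between 0.0725 and 0.484 CPM, endothelial between 0.247 and 1.65, muscle between 3.35 and 5.19 (Myod1 and Myog at 0), neural between 2.37 and 4.50 (Rbfox3 at 0) and immune between 6.95 and 19.0 CPM (Cd3e at 0). Pairs of libraries shared 0 to 9 kept cell barcodes, at most 0.513% of the kept barcodes of the smaller library. The experiments were counted with different software versions and feature lists (3.1.0 and 6.0.1 per the file headers), so experiment, software and feature list cannot be told apart.

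The start of each gene is shown because the TOP stretch is the sequence feature for which these genes are known. In the 30 bases around the RefSeq start site (15 before it and 15 from it on, GRCm38.p6), 36 of the 64 members with a promoter entry held a C followed by 5 or more C or T, read on the gene's strand only. The share was 56.25%, and it was 25.4% among 26961 other genes. Capitals mark the run. Rpl27a is shown for its run of 19 bases, a length only Rpl7a also reached among the member windows, and the others because the results below turn on them; Rps28 and Rpl5 have no such run in the window.
Rpl27a, chr7:109519180-109519209, plus strand: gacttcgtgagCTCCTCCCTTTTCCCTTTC
Rpl35, chr2:39005117-39005146, minus strand: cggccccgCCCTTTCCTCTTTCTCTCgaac
Rpl38, chr11:114668565-114668594, plus strand: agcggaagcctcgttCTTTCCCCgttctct
Rpl22l1, chr3:28805493-28805522, plus strand: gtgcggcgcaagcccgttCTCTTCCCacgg
Rpl13a, chr7:45128731-45128760, minus strand: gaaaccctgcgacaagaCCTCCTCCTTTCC
Rpl4, chr9:64173372-64173401, plus strand: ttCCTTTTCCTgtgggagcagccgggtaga
Rps28, chr17:33824548-33824577, minus strand: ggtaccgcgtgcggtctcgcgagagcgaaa
Rpl5, chr5:107900513-107900542, plus strand: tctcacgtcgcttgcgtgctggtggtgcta
A run of these letters is a description of the window and not evidence of a used start site.

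Ribosomal protein mRNAs made up 28.2%, 31.5% and 31.4% of all UMIs in Experiment 1 at 0, 17 and 30 h of SAG. In Experiment 2 without Dox they made up 43.5%, 39.1% and 37.7% at 0, 19 and 30 h, and with Dox 37.9%, 31.7% and 31.8%. The untreated library of Experiment 2 was the highest and that of Experiment 1 the lowest. On this base all 3 libraries of Experiment 1 lay below all 6 of Experiment 2 (the nearest were 31.5% and 31.7%). Without mitochondrial UMIs they did not: the 17 and 30 h libraries of Experiment 1 had 34.1% and 33.8%, and the 19 and 30 h libraries with Dox 33.6% and 33.7%. The separation also failed for the median cell and among cells of 1% to 10% mitochondrial UMIs. The large subunit held 16.03% to 24.7% of UMIs and the small subunit 12.2% to 18.8%. For both, the untreated library of Experiment 2 was the highest and that of Experiment 1 the lowest. The pseudogene entries left out held 0.0189% to 0.0436%.

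The share was lower with Dox at each of the 3 times, with differences of -5.64, -7.38 and -5.88 percentage points at 0, 19 and 30 h (mean -6.30 ± 0.945, SD, 3 pairs). With 3 pairs the exact two-sided sign-flip permutation test cannot go below p = 0.25, which is what it gave. The change from 0 h to 30 h of SAG had no common direction: it was 3.23 percentage points in Experiment 1, -5.86 in Experiment 2 without Dox and -6.11 with Dox (mean -2.91 ± 5.32, SD, exact permutation p = 0.5). At 17 to 19 h the changes were 3.32, -4.44 and -6.19 points (mean -2.44 ± 5.06, SD, exact permutation p = 0.5). Experiment 2 exceeded Experiment 1 by 15.3, 7.58 and 6.25 points at 0, 17 to 19 and 30 h without Dox (mean 9.72 ± 4.91, SD, exact permutation p = 0.25, the smallest possible).

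**Figure D1:**
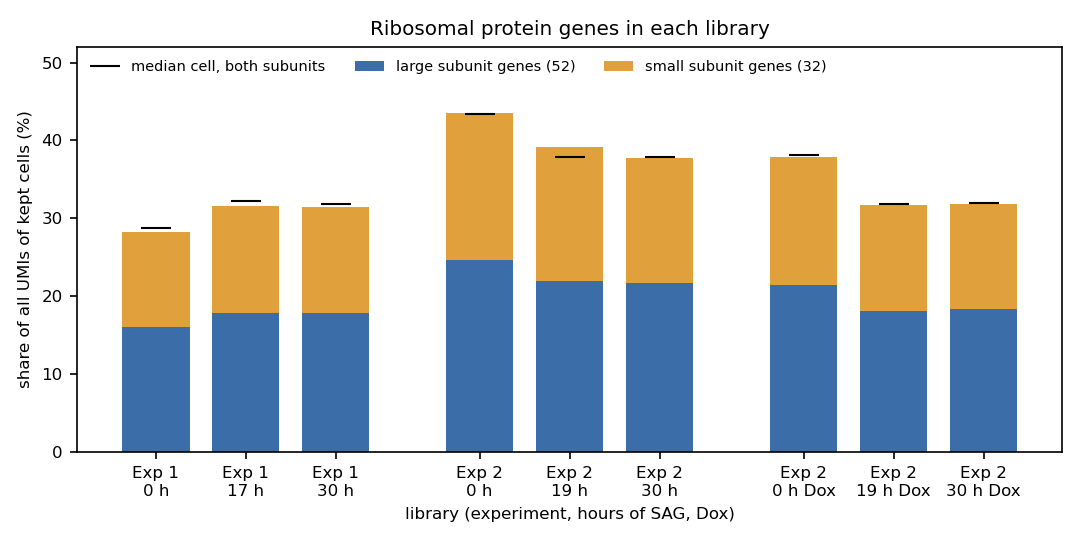
Ribosomal protein UMIs as a percentage of all UMIs (vertical axis) in each of the 9 libraries, ordered by experiment, Dox and hours of SAG (horizontal axis). Experiment 1 sits at 28.2% to 31.5%, and in Experiment 2 each library with Dox lies below its partner without Dox.

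Levels of single genes covered a wide range. Each UMI tags the 3′ end of an mRNA molecule, so levels are compared without dividing by length. Where a gene's level is given in all libraries, the 3 values of each arm stand in order of SAG time (0, 17 or 19, and 30 h). Among the most abundant members, Rpl23 averaged 10505 CPM over the 9 libraries, Rps20 9240.5, Rpl32 7640.2 and Rpl19 7425 CPM; the ranges of these 4 overlapped. At the other end lay Rpl36al (563 CPM), Rpl29 (400.4), Rpl39l (264), Rpl7l1 (69.4) and Rpl3l, the last with 0.0841 CPM. The order of the 84 members was alike within Experiment 1 (Spearman rho 0.934 between its 0 h and 17 h libraries) and least alike between the 0 h libraries of the experiments (rho 0.581), a description over genes of the same libraries.

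Copies of a ribosomal protein gene were expressed below their parent gene in every library. Rpl22l1, the copy of Rpl22, ran at 837, 946 and 762 CPM in Experiment 1, 1659.9, 1074 and 972 CPM in Experiment 2 without Dox, and 1201, 776 and 756 CPM with Dox, below Rpl22 (1734 to 3119.6 CPM). Rps27l, a p53-inducible copy of Rps27, lay between 425 and 917 CPM, with Rps27 between 1378 and 3107. Rpl39l lay between 202 and 316 CPM, far under Rpl39 (3546 to 8567), and Rpl7l1 between 53.5 and 87.9 CPM against 3757 to 5604 for Rpl7. Rps4l, Rps3a2 and Rps3a3 were not among the members. The acidic stalk, which recruits the GTPase factors of translation, was carried by Rplp0 (6624 CPM on average), Rplp1 (6946) and Rplp2 (3564). Rpsa, the 40S protein also known as the laminin receptor precursor, averaged 4580.2 CPM, Rps3a1 5533 CPM and Rps27a, made as a ubiquitin fusion, 5637 CPM.

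**Figure D2:**
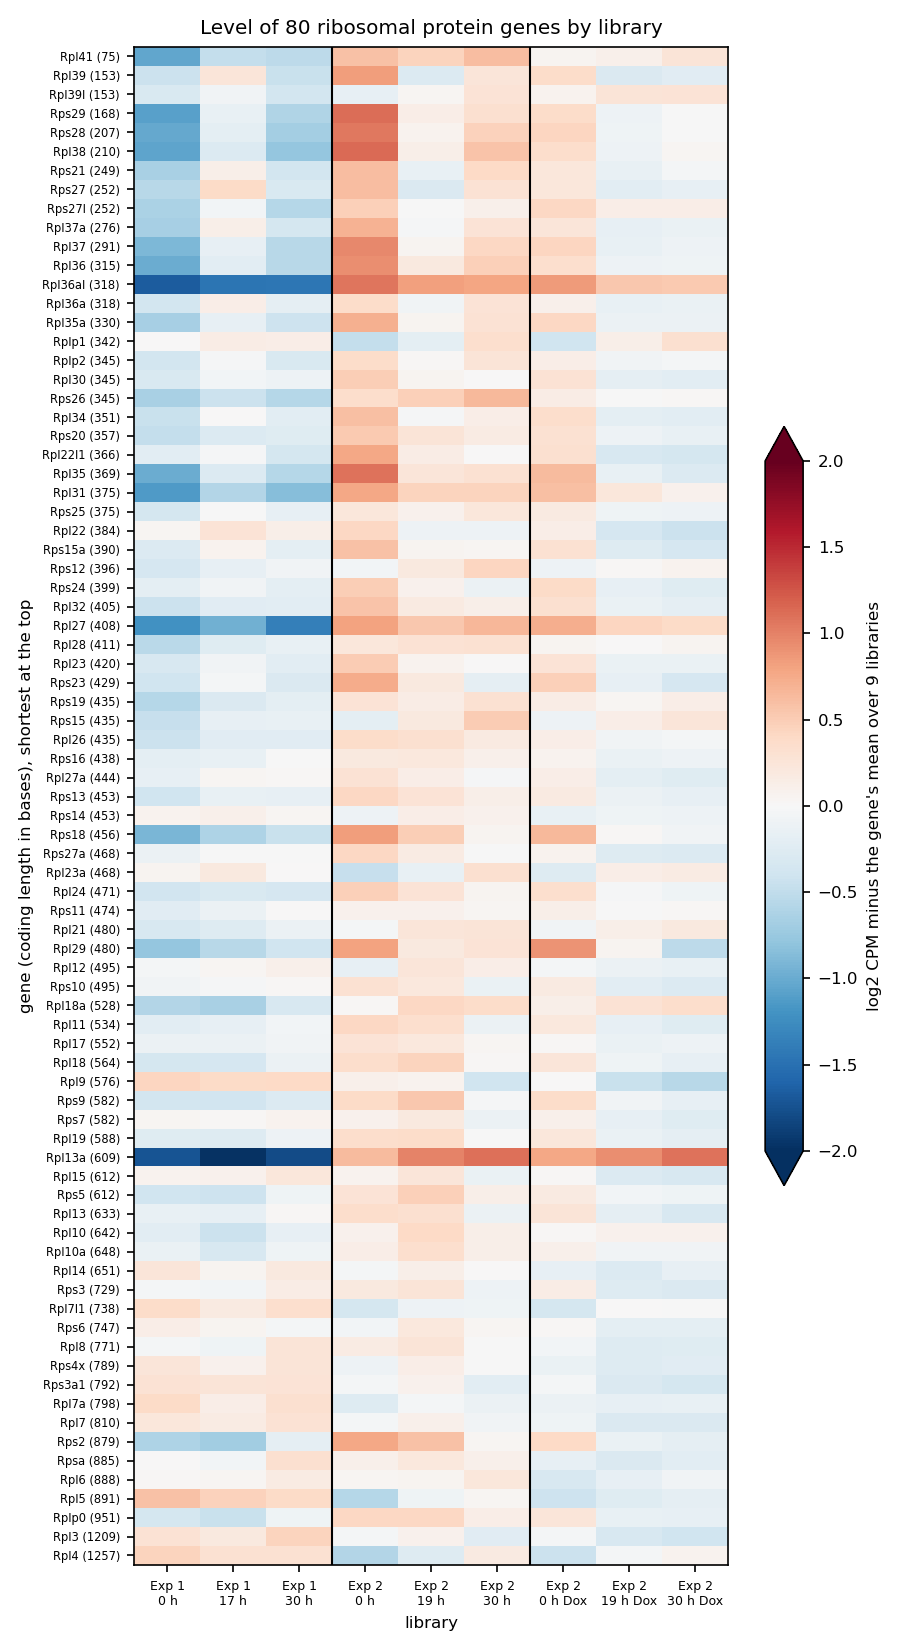
Level of each member in each library, as the log2 difference of its CPM from its own mean over the 9 libraries (colour), with 80 members in rows by coding length and libraries in columns. Most rows are low in Experiment 1, and many are highest in the 0 h library of Experiment 2 without Dox. Several rows run the other way between experiments, among them Rpl5, Rpl4, Rpl3, Rpl7, Rpl7a, Rpl9 and Rps3a1.

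With Dox, 77 of the 83 tested members were lower and 0 were higher (edgeR quasi-likelihood test, 6 libraries of Experiment 2 blocked by SAG time, adjusted p under 0.05 over 14162 genes). Among all genes tested, 18.4% were called lower and 18.6% higher. The 83 members had a median log2 fold change of -0.64, against 0.02 over the other genes, and 82 of them were lower with Dox at each of the 3 times. The medians were -0.51, -0.84 and -0.48 at 0, 19 and 30 h on the scale of TMM-scaled log2 CPM. All 32 small-subunit members were called lower (median -0.64), and 45 of 51 of the large subunit (median -0.64). Member genes with a C and pyrimidine run at the start had a median of -0.65 (33 of 36 called lower), and those without one -0.64 (26 of 27).

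The members called lower with the smallest p came from both subunits. Rpl38 (chr11:114668524-114672331, GRCm38), a small protein of the 60S surface whose loss in mice alters the axial skeleton, ran at 1856, 3191 and 2252 CPM in Experiment 1, 8501, 4183 and 5747 CPM in Experiment 2 without Dox, and 4961, 3596 and 3987 CPM with Dox. It was lower with Dox at all 3 times, and its log2 fold change was -0.90 ± 0.16 (SE), adjusted p = 2.0e-05. Rpl35 (chr2:39001580-39005624), which sits by the exit of the peptide tunnel, stood at 1165, 1918 and 1565 CPM in Experiment 1, 4918, 2721 and 2841 CPM in Experiment 2 without Dox, and 3584, 2078 and 1902 CPM with Dox. Its libraries with Dox were again each below their partner, with a log2 fold change of -0.87 ± 0.16 (SE), adjusted p = 1.8e-05. Rps29, a zinc-binding protein of the 40S head, measured 1206, 2300.2 and 1681 CPM in Experiment 1, 5569, 2808 and 3177 CPM in Experiment 2 without Dox, and 3304, 2375 and 2553 CPM with Dox. The fold change was -0.83 ± 0.16 (SE), adjusted p = 5.6e-05, and at 0 h the level fell from 5569 to 3304 CPM. Rpl22l1 gave -0.82 ± 0.15 (SE), adjusted p = 1.9e-05, and Rpl36 -0.87 ± 0.16 (SE), adjusted p = 2.7e-05. Rps26, which lies at the mRNA exit channel, Rps28, its neighbour there, and Rpl37 gave log2 fold changes of -0.82, -0.81 and -0.81 (adjusted p = 5.8e-05, 7.2e-05 and 9.4e-05).

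Members not called with Dox numbered 6. Rplp1, of the acidic stalk, ran at 6839, 7594 and 7498 CPM in Experiment 1, 4926, 5989 and 8583 CPM in Experiment 2 without Dox, and 5191, 7367 and 8523 CPM with Dox. Its CPM with Dox lay above its partner at 0 and 19 h and just below it at 30 h, and its TMM-scaled log2 fold change was -0.27 ± 0.16 (SE), adjusted p = 0.18. The others gave -0.38 for Rpl13a, -0.30 for Rpl4, -0.29 for Rpl23a and -0.25 for Rpl39l (adjusted p = 0.058, 0.1, 0.14 and 0.14), and Rpl3l, with its 55 UMIs, 0.32 (adjusted p = 0.63). Among the copies, Rps27l and Rpl7l1 were called lower (-0.35 ± 0.14 (SE) and -0.33 ± 0.12 (SE)), but with library totals alone as the scale both values turned positive (0.04 and 0.07). On that scale the median of all genes moved to 0.41 and that of the members to -0.25, so the members stood 0.66 below all genes on either scale, and 52 members were called lower and 0 higher. The split over all genes shifted with the scale, from 2638 higher and 2601 lower to 6981 higher and 495 lower.

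**Figure D3:**
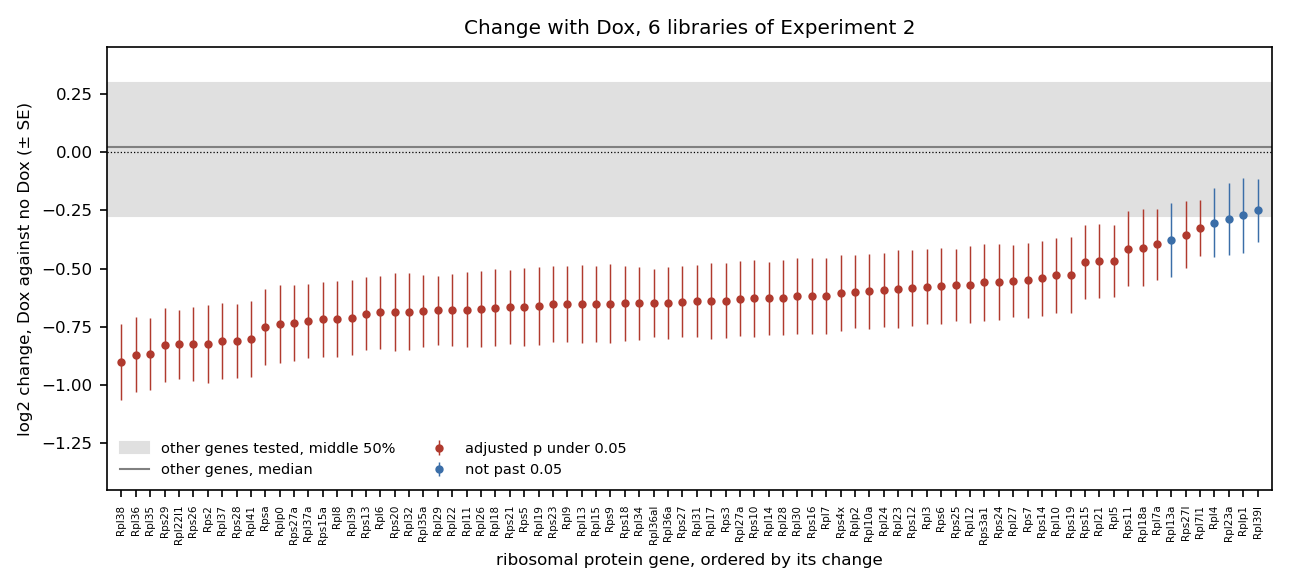
Log2 fold change with Dox in Experiment 2 for 80 members (vertical axis, ± SE; the sparse Rpl3l is among those left out), ordered by size (horizontal axis); red points passed the test, and the grey band holds the middle 50% of other genes. All points lie below 0, and the largest falls are those of Rpl38, Rpl35 and Rpl36.

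Abundance and length moved with the Dox difference in other genes too. Among 52 other genes with a mean level over 1000 CPM, 51.9% were called lower (median -0.42), against 94.7% of the 76 members in that range (median -0.64). Other genes with coding sequences of up to 300 bases were called lower in 36.6% of cases and those of 301 to 600 bases in 37.2%, against 90.9% and 95.8% of members of these lengths. The summed fibroblast markers were higher with Dox at each time (2652 and 4957 CPM at 0 h, 3470 and 7628 at 19 h, 5952 and 7874 at 30 h), and their part in the result was not tested. The count stood at 75 with cells of 10000 or more UMIs and at 73 without cells under 1% mitochondrial UMIs. It was 20 without the 0 h library without Dox, 18 without the 0 h library with Dox and 0 with SAG time left out of the fit. Of all genes, 21.2%, 21.0% and 1.25% were called in either direction in these fits.

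Genes that act on the same machinery were grouped by function. Fau and Rack1, which also encode proteins of the ribosome, were lower with Dox (-0.71 ± 0.16 (SE) and -0.45 ± 0.16 (SE); Rack1 was not called with library totals alone). Of 20 translation factors and other genes with TOP-type mRNAs, 10 were lower and 0 higher, with a median of -0.36; Eef1b2, a guanine exchange subunit of elongation factor 1, had -0.71 ± 0.16 (SE), and Eif3g, of the initiation factor that prepares the 40S, -0.59 ± 0.13 (SE). Of 35 ribosome biogenesis genes, 19 were lower and 1 higher (median -0.33); Mrto4, which acts in assembly of the stalk base, had -0.69 ± 0.12 (SE), and Nop58, a core protein of box C/D snoRNPs, -0.58 ± 0.13 (SE). Of 78 mitochondrial ribosomal protein genes, 50 were lower and 1 higher (median -0.36), with Mrpl49 at -0.75 ± 0.12 (SE). The medians of these last 3 lists changed sign with library totals alone, to 0.03, 0.06 and 0.03, with 1, 0 and 2 genes called lower and 3, 8 and 7 higher. Against all genes they stood 0.38, 0.35 and 0.38 lower on either scale.

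Of 20 genes of the mTORC1 pathway and of TOP mRNA control, 5 were lower with Dox and 5 higher. This was not far from the 18.4% and 18.6% of all genes, so the counts set no direction for these regulators. With library totals alone 2 were lower and 14 higher, where 495 of 14162 genes were lower and 6981 higher. Myc, a driver of ribosome production, ran at 76.7, 70.3 and 49.6 CPM in Experiment 1, 19.1, 14.4 and 16.1 CPM in Experiment 2 without Dox, and 14.1, 11.8 and 9.95 CPM with Dox. It was lower with Dox at each time (-0.87 ± 0.11 (SE), adjusted p = 2.3e-08), and the other lower genes included Eif4ebp1, the translation repressor 4E-BP1 (-0.74 ± 0.14 (SE)), and Ddit4, an inhibitor of mTORC1 (-0.51 ± 0.12 (SE), not called with library totals alone). Rps6kb1, the S6 kinase, was higher (0.42 ± 0.11 (SE)). Of 12 genes of the p53 response, 4 were higher and 0 lower, beside the same shares of all genes. With library totals alone 8 were higher and 0 lower, where 6981 of 14162 genes were higher and 495 lower. Cdkn1a, the cell cycle inhibitor p21, measured 151, 149 and 140.0 CPM in Experiment 1, 103, 170.0 and 209.6 CPM in Experiment 2 without Dox, and 267, 396 and 383 CPM with Dox, and its libraries with Dox were each above their partner (0.76 ± 0.14 (SE), adjusted p = 1.7e-05). Trp53inp1, Sesn1 and Btg2 had 0.47, 0.41 and 0.38.

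SAG time gave no called member. Without Dox and over both experiments, 0 of 83 members passed at 30 h against 0 h (0.446% of 14354 genes did), 0 at 17 to 19 h against 0 h (0.111%) and 0 at 30 h against 17 to 19 h (0.00697%). By DESeq2 the counts were 0 as well. In edgeR 0 members passed 0.05 even before adjustment, in each of the 3 comparisons. The members' median log2 fold changes were -0.26, -0.06 and -0.17, and their direction rested on single libraries. At 30 h against 0 h the median was -0.65 without the 0 h library of Experiment 1 and -0.62 without its 30 h library, but 0.17 without the 0 h library of Experiment 2 and 0.08 without its 30 h library. At 17 to 19 h it was -0.42 without the 0 h library of Experiment 1 and 0.32 without that of Experiment 2. Between 17 to 19 h and 30 h it was -0.51 without the 30 h library of Experiment 1 and 0.14 without that of Experiment 2. The highest values at 30 h were those of Rps15 (0.29 ± 0.40 (SE)), Rplp1 (0.25 ± 0.43 (SE)), Rpl23a (0.16) and Rps12 (0.16), and the lowest those of Rpl22l1 (-0.70 ± 0.37 (SE)), Rps23 (-0.65 ± 0.45 (SE)), Rpl39 (-0.61) and Rps24 (-0.54). At 17 to 19 h Rps15 (0.27), Rpl39l (0.14), Rpl23a (0.15) and Rpl12 (0.16) were uppermost and Rpl29 (-0.33), Rpl22l1 (-0.35), Rpl39 (-0.31) and Rpl22 (-0.26) lowest. Between 17 to 19 h and 30 h the extremes included Rplp1 (0.11), Rpl4 (0.09), Rps12 (0.04) and Rpsa (0.02) on 1 side and Rps27l (-0.36), Rpl22l1 (-0.36) and Rps23 (-0.41) on the other. In each list above of other genes, 0 were called at any SAG time.

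The experiments moved in opposite directions with SAG. On the TMM-scaled log2 CPM scale, the members' median change from 0 h was 0.24 at 17 h and 0.26 at 30 h in Experiment 1, where 70 and 78 of 83 were higher. In the arm of Experiment 2 without Dox the medians were -0.30 at 19 h (68 lower) and -0.74 at 30 h (78 lower). In its arm with Dox they were -0.69 (81 lower) and -0.72 (79 lower). In all, 75 members were higher at 30 h in Experiment 1 and lower at 30 h in Experiment 2 without Dox. Rps29 went from 1206 to 2300.2 CPM between 0 and 17 h in Experiment 1 and from 5569 to 2808 CPM between 0 and 19 h in Experiment 2. The changes of 82 members at 17 or 19 h ran against each other in the 2 experiments (Spearman rho -0.78 across genes, which share their libraries), and less so at 30 h (rho -0.30).

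A fit with a term for the difference between experiments in the SAG response was added after these values were seen; it takes the SAG response of Experiment 2 over its arms with and without Dox. Experiment 1 has 1 library per time, so its response is fitted exactly, the 2 residual degrees of freedom come from the arms of Experiment 2, and the p values assume that Experiment 1 varies alike. At 17 to 19 h, 23 members were called lower in Experiment 2 than in Experiment 1 and 0 higher (2.98% of all genes were called lower), with a median of -0.66. At 30 h there were 47 lower and 0 higher (7.64% of all genes lower), with a median of -0.995. The smallest p values at 17 to 19 h were those of Rps27 (-2.01 ± 0.32 (SE), adjusted p = 1.3e-05) and Rps29 (-2.06 ± 0.33 (SE), adjusted p = 1.4e-05), 40S proteins with zinc-binding folds. Rps28, Rpl39, Rpl35 and Rpl38 gave -1.97, -1.94, -1.93 and -1.92. At 30 h the smallest was that of Rpl29, a small basic protein of the 60S, with -1.89 ± 0.30 (SE), adjusted p = 4.9e-06. Rpl29 itself measured 216, 253 and 282 CPM in Experiment 1, 648, 426 and 449 CPM in Experiment 2 without Dox, and 688, 385 and 257 CPM with Dox. It was higher at 30 h than at 0 h in Experiment 1 and lower in both arms of Experiment 2. Rpl35 (-1.81), Rps18 (-1.74) and Rps2 (-1.60), the last a 40S protein at the mRNA entry, were among those that followed. The median at 30 h was -1.04 and -0.91 without the 0 h library of Experiment 2 without and with Dox. In these fits, and without the 30 h library without Dox, the share of members called at 30 h did not exceed that of all genes called in either direction. The members called there were all lower, and the share of all genes called lower alone was not counted. The counts changed with single libraries. Without the 0 h library of Experiment 2 without Dox they were 6 and 4, and without that with Dox 7 and 4. Without the 30 h library without Dox the 30 h count was 3, without that with Dox 15, and without the 19 h library they were 69 and 74 (without Dox) or 40 and 74 (with Dox). With library totals alone they were 29 lower and 0 higher, and 39 lower and 4 higher.

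**Figure D4:**
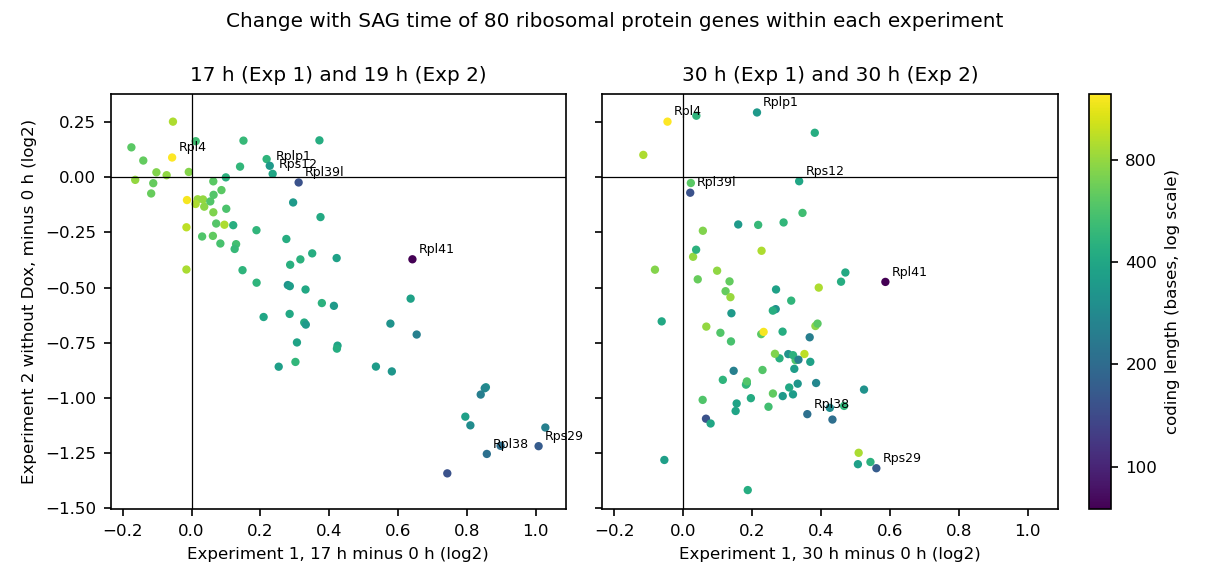
Log2 change of 80 members from 0 h to 17 or 19 h and from 0 h to 30 h of SAG, Experiment 1 on the horizontal axis and Experiment 2 without Dox on the vertical axis, with the colour giving coding length. Most points lie to the right of 0 and below 0. At 17 or 19 h short genes such as Rps29, Rps27 and Rpl38 lie furthest to the lower right, but the short Rpl41 and Rpl39l do not.

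No member passed the threshold for a SAG response that differed with Dox. The difference between the 30 h responses with and without Dox was called for 0 members and 0 genes in all (0%), by edgeR and, for members, by DESeq2. Rpl29 alone among the members passed 0.05 before adjustment. That fit sets the arm with Dox against both experiments without it, and the median over members was -0.41. It was -0.06 without the 0 h library of Experiment 1 and -0.07 without its 30 h library, and -0.84 and -0.77 without those of Experiment 2 without Dox. Within Experiment 2 the members' median changes at 30 h were -0.72 with and -0.74 without Dox, as given above. Rpl29 (-1.49 ± 0.60 (SE)), Rpl35 (-0.80 ± 0.75 (SE)), Rps18 (-0.73) and Rpl31 (-0.64) had the lowest values, and Rplp1 (0.07) and Rpl7l1 (0.03) were among the 3 members above 0, with the sparse Rpl3l.

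Ribosomal protein levels were higher in Experiment 2 than in Experiment 1. Of 83 members 43 were higher and 0 lower (20.2% of all genes were called higher and 18.5% lower), with a median log2 fold change of 0.88. They were 26 of 51 of the large and 17 of 32 of the small subunit. The difference narrowed along the course, with medians of 1.44, 0.68 and 0.41 at 0, 17 to 19 and 30 h, and 64 members were higher in Experiment 2 at all 3 times. With library totals alone, 32 were higher and 2 lower (Rpl5, -0.68, and Rpl4, -0.57), and the median of all genes moved to -0.43 (1315 genes higher and 4473 lower, against 2902 and 2656). The count was 18 without the untreated library of Experiment 2, 16 without that of Experiment 1, and 13 and 14 without the 19 h and the 17 h library. In these fits the share of members called did not exceed that of all genes called in either direction. The members called there were all higher, and the share of all genes called higher alone was not counted. The median over members was 0.55, 0.56, 0.93 and 0.94 in these fits.

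The 3 members furthest apart each share sequence or position with a feature listed for Experiment 1 only. Rpl13a (chr7:45125558-45128761), of the 60S and known for silencing inflammatory mRNAs, ran at 719, 604 and 689.7 CPM in Experiment 1, 3675, 4735 and 5132 CPM in Experiment 2 without Dox, and 4053, 4514 and 5035 CPM with Dox. All values of Experiment 1 lay below all of Experiment 2, and the log2 fold change was 3.19 ± 0.35 (SE), adjusted p = 1.7e-08. In Experiment 1's list alone, Gm45713 overlaps Rpl13a over 2840 bases on the same strand. Rpl36al, a copy of Rpl36a, ran at 141, 162 and 165 CPM in Experiment 1, 943, 789 and 770.0 CPM in Experiment 2 without Dox, and 808, 649 and 641 CPM with Dox, with 2.87 ± 0.30 (SE), adjusted p = 5.6e-09; Gm49383 overlaps it and shares 64.4% of the 31-base words of its last 300 bases. Rpl27 ran at 856, 1021 and 775 CPM in Experiment 1, 3489, 2877 and 3156 CPM in Experiment 2 without Dox, and 3272, 2665 and 2595 CPM with Dox, with 2.30 ± 0.33 (SE), adjusted p = 2.4e-06, and Rpl27-ps3 shares 84.4% of these words. Counting by the authors could have split or dropped reads between such features, so these levels are uncertain, and the part of the feature lists in the difference was not tested. Rpl13, Rps12, Rplp1 and Rpl7a have such a feature in Experiment 1's list too, and their log2 fold changes were 0.74, 0.84, 0.25 and 0.04.

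The other 5 of the 8 called members with the smallest p had no feature of that kind. Rpl31, of the peptide tunnel exit, gave 1.86 ± 0.35 (SE), adjusted p = 8.3e-05, and its highest value in Experiment 1 (1533 CPM) lay below its lowest in Experiment 2 (2428 CPM, with Dox). Rpl29 gave 1.45, Rps26 1.49 and Rpl38 1.75 (adjusted p = 0.00019, 0.00066 and 0.00072). Rpl41, the shortest ribosomal protein, gave 1.67 ± 0.37 (SE), adjusted p = 0.00055; its near copy Gm10076, listed for both experiments, stood at 192 to 447 CPM in Experiment 1 and 2479 to 5961 CPM in Experiment 2 without Dox. The lowest values were those of Rpl5 (-0.22 ± 0.32 (SE)), Rpl4 (-0.12 ± 0.30 (SE)) and Rpl7l1 (-0.02), none of them called. Rpl5, which carries the 5S RNA into the ribosome with Rpl11, measured 4089, 3736 and 3566 CPM in Experiment 1, 1842, 2572 and 2809 CPM in Experiment 2 without Dox, and 2038, 2313 and 2416 CPM with Dox. Every value in Experiment 1 was above every value in Experiment 2. Rpl4 measured 2137, 1949 and 1956 CPM in Experiment 1, 1054, 1316 and 1785 CPM in Experiment 2 without Dox, and 1176, 1536 and 1648 CPM with Dox, again without overlap. This was not particular to these genes. In CPM, Rpl3, Rpl7, Rpl7a, Rpl7l1, Rpl9 and Rps3a1 also lay higher in every library of Experiment 1 than in any of Experiment 2. Rpl3, for example, had 4396 to 5197 CPM in Experiment 1 and 2913 to 4052 CPM in Experiment 2.

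Outside the members, Fau was higher in Experiment 2 by 1.40 ± 0.37 (SE). Of the 78 mitochondrial ribosomal protein genes, 38 were higher and 2 lower (median 0.51), where 20.2% and 18.5% of all genes were. Of the 20 translation factors and other TOP-type genes, 0 were higher and 4 lower, the latter near the share of all genes, among them Eef2 (-0.98 ± 0.32 (SE)), Eif4b (-0.90 ± 0.26 (SE)) and Pabpc1 (-0.80 ± 0.28 (SE)), and Myc was lower (-1.52 ± 0.19 (SE), adjusted p = 2.8e-07). With library totals alone 5 and 4 of the mitochondrial genes and 0 and 10 of the translation genes were higher and lower.

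Coding length ordered the members. The 27 shortest (75 to 390 bases) held 6.21% of UMIs in the untreated library of Experiment 1 and 14.1% in that of Experiment 2, while the 28 longest (564 to 1257 bases) held 11.5% and 13.8%. In Experiment 1 the shortest went to 8.67% at 17 h and 7.21% at 30 h, in Experiment 2 without Dox to 9.66% and 11.3%, and with Dox from 10.9% to 8.49% and 8.71%. The longest moved less, between 10.8% and 14.7% over all libraries. Across 82 members, Spearman's rho with coding length was -0.52 for the difference between experiments, 0.26 for Dox, 0.37 for SAG at 30 h, and 0.76 and 0.37 for the difference in the SAG response at 17 to 19 h and at 30 h. These are descriptions over genes that share libraries. Other genes were ordered in the same sense: their median difference between experiments was 0.66 for coding sequences of up to 300 bases, 0.34 for 301 to 600, 0.15 for 601 to 900 and -0.03 for 901 to 1500, and with Dox -0.26, -0.24, -0.15 and -0.02.

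**Figure D5:**
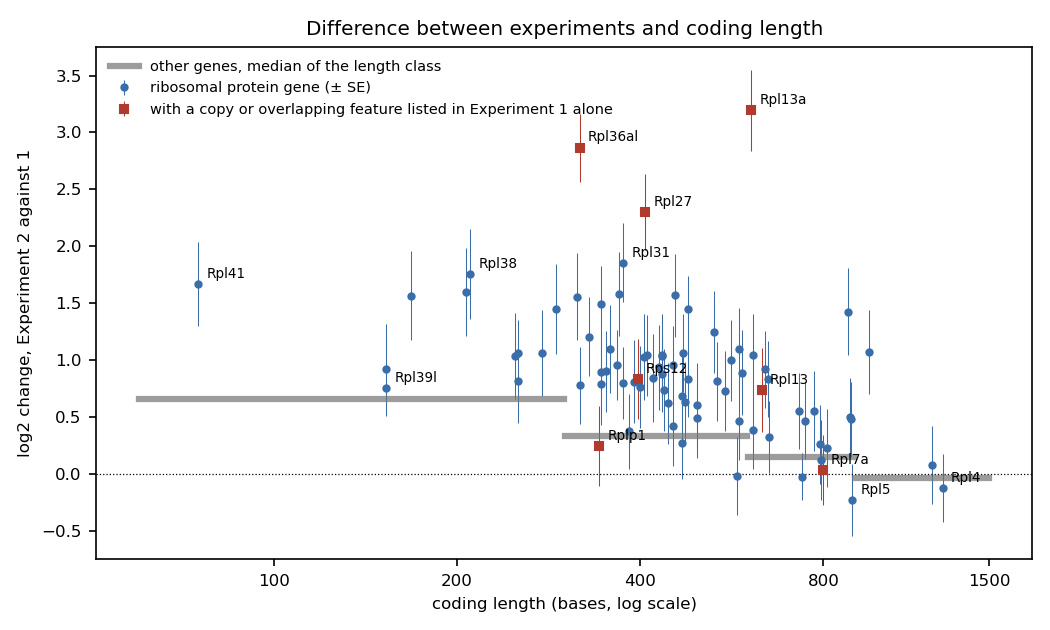
Log2 fold change of Experiment 2 against Experiment 1 without Dox (vertical axis, with standard error) against coding length in bases (horizontal axis, log scale) for 80 members; squares are members with a copy or overlapping feature in Experiment 1's list alone, and grey lines are medians of other genes per length class. Short members lie higher than long ones, and Rpl13a, Rpl36al and Rpl27 lie above the rest.

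Single cells were compared after thinning each cell of 10000 or more UMIs to 10000. The mean ribosomal protein share per cell lay between 28.4% and 43.7% over libraries, with an SD between cells of 4.47 to 6.39 percentage points, where sampling of UMIs gives 0.449 to 0.494. A median of 81 members was detected per cell in each library, and 0 cells lacked a ribosomal protein UMI. In the 4 libraries with 50 or more cells under 1% mitochondrial UMIs, the ribosomal protein share of those cells was 45.1%, 40.8%, 35.8% and 34.8% (19 h and then 30 h of Experiment 2 for the arm not given Dox, then the same for the Dox arm), and that of cells with 5% to 10% was 38.8%, 36.4%, 30.3% and 30.9%. Mitochondrial UMIs are part of that denominator. Over the other UMIs alone the shares were 45.3%, 41.03%, 35.9% and 34.998% against 41.9%, 39.4%, 32.8% and 33.5%, a smaller gap in each. On that base the share in cells of 1% to 5% was above that in cells of 5% to 10% in the Experiment 1 libraries but below it in 3 libraries of Experiment 2 (46.1% and 47.1% at 0 h and 41.4% and 41.9% at 19 h without Dox, 33.3% and 33.5% at 30 h with Dox). Barcodes above 25% mitochondrial UMIs, which were not kept, had 4.55% to 24.7% of all UMIs, and 8.76% to 37.7% of UMIs other than mitochondrial ones.

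Cells with a Top2a or Mki67 UMI, markers of S to M phase, were compared with cells without one. In cells thinned to a fixed total, a lower ribosomal protein share leaves more room for any other UMI, so a marker found there picks cells of lower share by construction, and the difference on that base (-1.44 ± 0.666 percentage points, SD over 9 libraries) is given without a test. The marker was therefore also called on 5000 UMIs per cell from outside the ribosomal protein genes, a base added after the data were seen. So called, cells with the marker had a lower share in 9 of 9 libraries, with a mean difference of -1.26 ± 0.689 points (SD; exact two-sided sign-flip permutation p = 0.0039, the smallest that 9 libraries allow). It was largest in Experiment 1 at 30 h (30.01% and 32.3%) and smallest in Experiment 2 at 30 h with Dox (31.8% and 31.95%). Cells with a UMI of Gli1, the Hedgehog target gene, were compared in the 6 libraries with SAG in the same way. Called on 5000 other UMIs, they had a lower share in 2 of 6, with a mean difference of 0.124 ± 0.445 points (SD; range -0.488 to 0.767; exact permutation p = 0.531, smallest possible 0.031). On the fixed total the mean difference was -0.215 ± 0.649 points.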

How the data were processed

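Single cell 3′ libraries (10x Genomics, version 3.1) were deposited as UMI count matrices, 1 per library. The authors made the counts with Cell Ranger on mm10, per the submitters' processing notes, and the file headers give software versions 3.1.0 (Experiment 1) and 6.0.1 (Experiment 2). Features were joined by gene ID. Counts were summed per library over cells of 5000 UMIs or more whose mitochondrial share was 10% or less and tested over all genes with edgeR 4.0.16 (R 4.3.3; filterByExpr, TMM, quasi-likelihood F test, Benjamini-Hochberg, threshold 0.05). The SAG, experiment and Dox-difference comparisons were fitted to the 9 libraries together, with terms for condition (SAG time by Dox) and for experiment, and the Dox comparison to the 6 libraries of Experiment 2 with SAG time; each left 2 residual degrees of freedom, and libraries of conditions with a single library share the spread. DESeq2 1.42.0, other scalings, filters and left-out libraries were alternatives. The script was tested on simulated data. Log2 differences between single libraries used a prior count of 2. The SE is the log2 fold change divided by the root of F. Lengths and positions come from GENCODE (GRCm38), start windows from RefSeq (GRCm38.p6).

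The members, the lists and the alternatives were chosen with earlier results of these data known. Named genes were the 5 highest and 5 lowest members by mean CPM, up to 8 called members of smallest p in each direction per comparison (4 by value where none was called), the stalk genes and copies, up to 4 called genes per other list, and the 3 members furthest each way from the members' median; those of the added comparison between experiments, and Rps2 and Rps18 there, were chosen after their values were seen. A few genes that the rule takes are counted but not reported singly here.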

Additional observations from a re-analysis of the deposited data

Results flagged for a closer look

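The SAG response of the ribosomal protein genes differed between the 2 experiments, by a test of the difference itself (edgeR quasi-likelihood test, adjusted p under 0.05 over 14354 genes) that was added after the opposite directions were seen. Experiment 1 has 1 library per time and gives no spread of its own, so the p values rest on the spread between the arms of Experiment 2, with 2 residual degrees of freedom. At 17 to 19 h, 23 of 83 members were lower in Experiment 2 than in Experiment 1 relative to their 0 h libraries, with a median difference of -0.66 (log2) over the members. At 30 h, 47 of 83 were lower, with a median of -0.995. Of all genes, 2.98% and 7.64% were called lower. Without either 0 h library of Experiment 2, or without its 30 h library without Dox, the share of members called at 30 h did not exceed that of all genes called in either direction. The members called there were all lower, and the share of all genes called lower alone was not counted for these fits. The 0 h library of Experiment 2 without Dox, which enters this comparison, the Dox comparison and the comparison of experiments, had the highest ribosomal protein share (43.5%), and the 0 h library of Experiment 1 the lowest (28.2%). The part of these libraries, of software version and of feature list in the difference was not tested.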

How the results depend on the processing

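With SAG time left out of the Dox fit (no replicate block), 0 members were called with Dox. The replicate numbers are the experiment numbers in the titles, so the block is the experiment or the time; in the SAG comparison at 30 h, 0 members were called without the experiment term as well. With library totals alone, the Dox values of Rpl7l1 and Rps27l turned to 0.0652 and 0.0375. The cause was not tested. Leaving out a library in turn, members called ran from 18 to 81 for Dox, from 13 to 58 for the experiments, from 0 to 2 for SAG at 30 h (2, Rpl22l1 among them, without the 0 h library of Experiment 1), from 0 to 1 for the Dox difference at 30 h, and from 6 to 69 and 3 to 74 for the difference between experiments at 17 to 19 h and at 30 h. For Dox, the experiments and the 30 h difference between experiments, the lowest counts were near or below the share of all genes called in either direction. Within each of these comparisons the members called there went the same way. The share of all genes called in that direction alone was not counted. The fits with a library left out have 1 residual degree of freedom fewer. Where a condition kept a single library it was assumed to vary like the others. Under the other scalings, filters, cell limits and DESeq2 the counts stayed within 1.5 times of the reported ones, at 52 to 77 for Dox and 32 to 53 higher for the experiments. The genes were not all the same: DESeq2 also called 30 of the 43 members of the experiment comparison and 71 of the 77 of the Dox comparison. For the difference between experiments only the scalings were tried (23 to 29 at 17 to 19 h and 39 to 50 lower at 30 h, with 4 higher with library totals alone). The Gli1 difference on a fixed total was -0.228 when thinned to 5000 UMIs in place of 10000, past the threshold, with other cells and other marker calls entering as well. A marker called on a fixed total picks cells of lower share by construction, so nothing is drawn from that value. With the marker called on 5000 other UMIs the sign of the Gli1 difference turned, to 0.124. Called so, the Top2a or Mki67 difference was -1.26. Depth limits Rpl3l and Rpl10l, for which no difference was detectable.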
